A study of Macaca mulatta with 8 samples.

Results

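Interneurons that hold RNA of both reelin (RELN) and ADARB2 were taken from single nuclei of rhesus macaque brain. A nucleus was a member when it had at least 500 unique molecular identifiers (UMIs, counted RNA molecules) and 300 genes, at least 2 UMIs of GAD1 and GAD2 together, at least 5 of ADARB2 and at least 3 of RELN. It also had to have 0 UMIs of VIP, CALB2, LHX6 and SLC17A7. The rule was met by 797 nuclei. The matrix held 59749 barcodes, of which 58220 passed the depth filter and 5620 were GABAergic (at least 2 UMIs of GAD1 and GAD2, none of SLC17A7). Members thus made up 14.2% of GABAergic nuclei, with an exact Clopper-Pearson 95% interval of 13.3% to 15.1%. This and all later intervals cover counting error only.

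Reelin is a large secreted glycoprotein that guides migrating neurons in the embryo and acts on synapses later in life. It binds the receptors VLDLR and LRP8, and the adaptor DAB1 carries the signal inside the receiving cell. In the postnatal cortex and hippocampus much of it is made by GABAergic interneurons, among them neurogliaform cells, which release GABA diffusely and are commonly marked by NDNF and LAMP5. ADARB2, a relative of the RNA-editing enzymes without known editing activity, marks interneurons born in the caudal ganglionic eminence, whereas LHX6 marks those of the medial ganglionic eminence.

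The study profiled frozen tissue of male rhesus macaques with droplet-based 3' sequencing (10x Genomics chemistry v3). Tissue of 2 untreated animals was mixed into a control pool and tissue of 1 animal that had breathed sevoflurane, an anaesthetic gas, formed a second pool. Each yielded 4 samples. The exposed animal inhaled about 2.5 to 3% of the gas for 4 h per session, first near postnatal day 7 and again at 14 and 28 days, which the labels do not define as ages or as intervals. The sample characteristics name the hippocampus and the growth protocol the amygdala. No other treatment or genotype is given, and no age at tissue collection was used here.

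No source used here pairs the 8 libraries of the matrix, numbered below by barcode suffix, with the 8 samples. Exposed and control nuclei were therefore not compared, and no p-value was computed: the matrix was treated as 1 sample. The libraries are also aliquots of pools, so their spread is not a spread between animals. They held 35806547 to 47007082 UMIs each, with a median per nucleus past the filter of 3189 to 3426 in libraries 1 to 4 and 6078 to 6326 in libraries 5 to 8. Of 59318 distinct barcode sequences, 429 occurred in more than 1 library. This touched 14 members, none of which shared its barcode with another member.

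Libraries 1 to 8 gave 62, 67, 58, 41, 149, 157, 133 and 130 members. As a share of GABAergic nuclei these were 11.3%, 12.1%, 12.5%, 9.13%, 16.0%, 16.7%, 14.8% and 15.6%. Library 4 was the lowest and library 6 the highest, and the lowest share of libraries 5 to 8 lay above the highest of libraries 1 to 4. The median member had 5594 UMIs (range 826 to 35859), with library medians of 6709, 7093, 7145.5 and 6960 in libraries 1 to 4 and 5412, 5154, 5147 and 5612.5 in libraries 5 to 8. When every nucleus was thinned to 2000 UMIs before the rule was applied, 424 of 2698 GABAergic nuclei met it (15.7%, interval 14.4% to 17.1%). These can include nuclei that were not members before, since thinning can remove UMIs of VIP, CALB2 or LHX6. The thinned library shares were 12.4%, 15.3%, 16.0%, 9.70%, 17.9%, 18.5%, 14.4% and 15.5%, so that libraries 2 and 3 then lay among libraries 5 to 8.

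**Figure D1:**
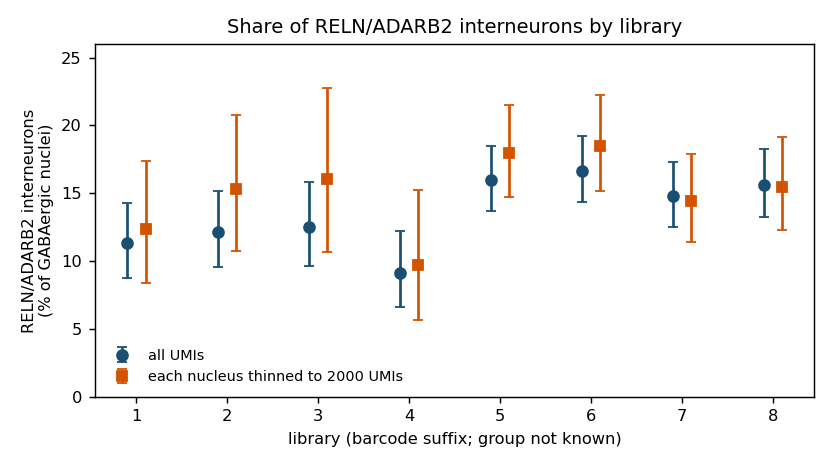
Share of RELN and ADARB2 interneurons among GABAergic nuclei (%, vertical axis) in each of the 8 libraries (horizontal axis), from all UMIs (circles) and after thinning each nucleus to 2000 UMIs (squares); bars are exact 95% intervals. Shares from all UMIs run from 9.13% in library 4 to 16.7% in library 6. After thinning the intervals of all libraries overlap, those of library 4 (up to 15.27%) and library 6 (from 15.16%) only just.

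The genes of the rule are given as a description. ADARB2 had a median of 53 UMIs per member (5 to 228) and RELN a median of 21 (3 to 165), so most members were far from both thresholds. GAD1 and GAD2 together had a median of 5 UMIs. At the edge of the rule, the 31 members with exactly 3 UMIs of RELN had 0 UMIs of NDNF, where 3 UMIs would be 17.1 CPM (UMIs of a gene in each 1000000 UMIs of the class), while the 52 nuclei just outside with 2 UMIs of RELN had 11.5 CPM. Their LAMP5 level was 68.4 CPM inside and 48.8 CPM outside, and their CNR1 level 724 and 926 CPM. At the ADARB2 edge, the 13 members with 5 to 7 UMIs had a CNR1 level of 111 CPM and the 18 nuclei with 2 to 4 UMIs one of 78.1 CPM.

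Of the genes that mark the label, 3 were not used by the rule: NDNF, a secreted neuron-derived factor, LAMP5, a lysosome-associated membrane protein, and CNR1, the CB1 cannabinoid receptor. In libraries 1 to 8, NDNF stood at 145, 140, 135, 135, 90.5, 80.4, 65.0 and 89.9 CPM in members, all above the 4.27 to 8.44 CPM of other GABAergic nuclei. Libraries 1 to 4 were the highest for NDNF and did not overlap with libraries 5 to 8, a spread whose relation to depth or to the pools was not tested. How many of all genes part these libraries in this way was not counted. LAMP5 stood at 117, 107, 119, 96.6, 78.9, 84.6, 96.9 and 57.5 CPM, against 26.5 to 41.4 CPM in other GABAergic nuclei. CNR1 stood at 661, 444, 826, 773, 741, 860, 979 and 984 CPM, against 218 to 388 CPM. For all 3 genes the ranges of members and other GABAergic nuclei did not overlap. Here and below, the share of all genes with such a gap between classes was not counted. For LAMP5 and CNR1 the ranges did overlap with those of ADARB2 nuclei without RELN, described below.

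Each of these markers was nevertheless seen in only part of the members. With every nucleus thinned to 2000 UMIs, NDNF had a UMI in 17.3% of members, LAMP5 in 16.6% and CNR1 in 46.2% (36.5%, 33.9% and 63.2% from all UMIs). In oligodendrocytes, which should lack them, the thinned shares were 0.564%, 0.616% and 2.95%, at a median depth of 3468.5 UMIs before thinning against 5594 in members. These 3 markers were above that background in the members as a group, though not in each nucleus. For the genes of the rule the oligodendrocyte shares were far higher, 62.2% with a UMI of ADARB2 and 15.4% with one of RELN after thinning, against 99.7% and 97.5% of members. A single UMI of either therefore does not mark an interneuron, and how much of the low counts near the thresholds came from such RNA was not tested.

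The summed levels of marker lists did not set the members apart from the most similar classes. The 8 neurogliaform genes (NDNF, LAMP5, SV2C, KIT, EYA4, FREM1, CXCL14, HAPLN1) were all at 10 CPM or more and summed to 1101 CPM in members, 442 in other GABAergic nuclei and 291 in VIP or CALB2 interneurons, but to 1023 in ADARB2 nuclei without RELN and 1682 in nuclei with LAMP5 and LHX6. The list for CCK basket cells summed to 952 CPM in members, 386 in other GABAergic nuclei, 818 in VIP or CALB2 interneurons and 729 without RELN. In members almost all of it was CNR1 and TNFAIP8L3, while CCK itself was at 0.584 CPM. Cajal-Retzius cells are glutamatergic reelin producers of the young hippocampus. The rule selects against them, since it asks for UMIs of GAD1 or GAD2 and for 0 UMIs of CALB2, a gene of their list. Their markers in members are therefore given as a description. LHX1, LHX5 and NHLH2 were at 0 UMIs and the list without CALB2 summed to 13.8 CPM, with TP73 at 10.7 CPM. SST stood at 27.8 CPM, with a thinned share of 4.81% in members, 4.06% without RELN, 2.62% in VIP or CALB2 interneurons and 8.98% in oligodendrocytes. These shares are not read as expression in members. Glial genes gave UMIs in both classes: the astrocyte list at 689 CPM (449 to 842 over libraries) against 585 (472 to 754) in other GABAergic nuclei, and the oligodendrocyte list at 230 (59.2 to 801) against 339 (90.1 to 1088). Their part in the results was not tested.

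**Figure D2:**
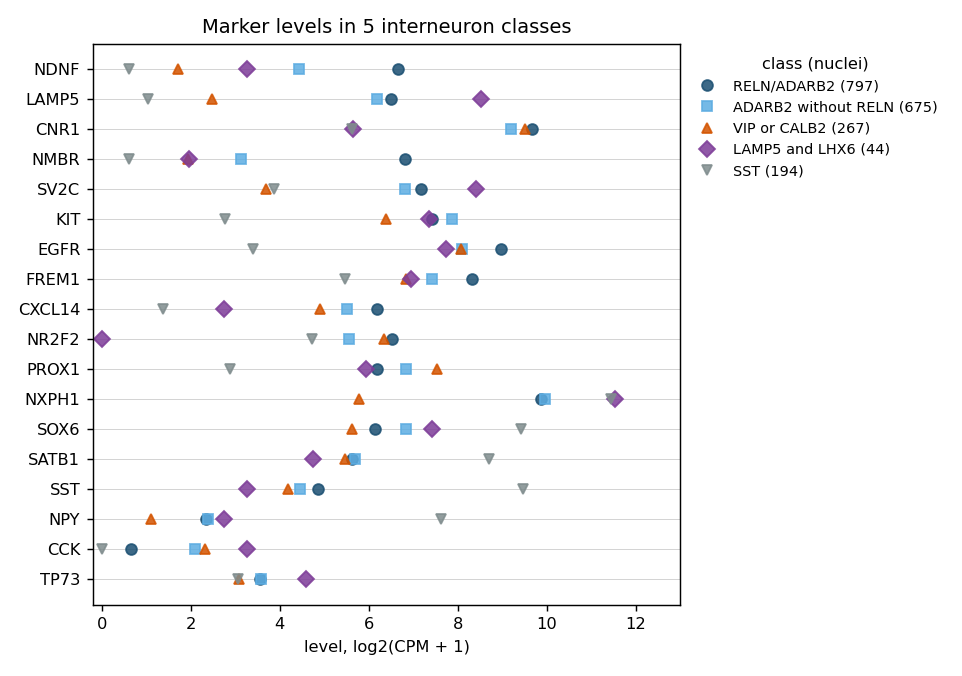
Level of 18 marker genes, log2(CPM + 1) on the horizontal axis, in 5 interneuron classes (symbols, with the number of nuclei in the legend). Members (dark circles) are to the right of all 4 other classes for NDNF and NMBR, while LAMP5 and SV2C are highest in the 44 nuclei with LAMP5 and LHX6.

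Against all 4823 other GABAergic nuclei, genes called higher in members included several receptors, and genes called lower included markers of the medial eminence. The rule bears on the latter, since members had to lack LHX6 while 33.6% of the other GABAergic nuclei had a UMI of it, so lower SOX6, SATB1 and NXPH1 are given as a description. A call needed a 2-fold CPM ratio, 10 CPM or more in the higher class, and 1 direction shared by all libraries that held 10 or more nuclei of each class (all 8 here). Of 9372 genes measured, 112 were called higher in members (1.2%) and 215 lower (2.29%), with a median log2 ratio over all measured genes of -0.03. Leaving out genes used by the rule, NMBR had the largest ratio of the genes named here: the receptor for neuromedin B stood at 112 CPM in members and 4.40 in other GABAergic nuclei, a ratio of 25.4 (interval 21.1 to 30.7). NDNF followed with 100.5 against 6.27 CPM, 16.0-fold (13.6 to 18.9).

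NMBR was even across libraries, at 87.4, 140, 117, 93.2, 117, 106, 113 and 113 CPM in members, with other GABAergic nuclei at 2.48 to 6.78. HTR2C, the serotonin 2C receptor, varied far more, at 162, 189, 397, 611, 258, 330, 205 and 359 CPM, with other GABAergic nuclei at 59.9 to 140. Library 4 was the highest for HTR2C and library 1 the lowest, still above the other class in each case. HTR2C was 3.09-fold higher overall (2.90 to 3.29); under stricter thresholds of the rule, ADARB2 of at least 10 and RELN of at least 5 UMIs, its log2 ratio was 1.61 but not every library kept the direction. EGFR, the epidermal growth factor receptor, stood at 580, 727, 492, 393, 527, 458, 418 and 465 CPM, all above 87.7 to 147, and was 4.02-fold higher (3.82 to 4.22). Against ADARB2 nuclei without RELN, described below, EGFR was not called.

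Of 16 neuromodulator and peptide receptors measured, 4 were called higher (HTR2C, CNR1, ADRA1A, CHRM3) and 1 lower (OPRM1), beside 1.2% and 2.29% of all genes. The list median log2 ratio was 0.22. Of these 4, only HTR2C was also called higher against ADARB2 nuclei without RELN, described below. CNR1 was 2.84-fold higher (2.74 to 2.95), the muscarinic receptor gene CHRM3 2.13-fold (2.06 to 2.20) and the adrenergic receptor gene ADRA1A 2.30-fold (2.17 to 2.44). OPRM1, the mu opioid receptor, stood at 7.01 CPM in members and 24.8 in other GABAergic nuclei. CHRNA7, the alpha 7 nicotinic subunit, was called at a log2 ratio of 1.04 that fell to 1.00 without library 1 and 0.99 without library 3, just under the 2-fold line.

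Of the 8 neurogliaform genes, 7 were called higher than in other GABAergic nuclei, beside 1.2% of all genes. Against ADARB2 nuclei without RELN, described below, NDNF was the only one of them called higher. HAPLN1 was called at a log2 ratio of 1.03. It was 0.998 under looser thresholds of the rule and 0.974 without library 2, and then not called. LAMP5 was 2.78-fold higher (2.49 to 3.10), FREM1, an extracellular matrix protein, 3.21-fold (3.02 to 3.41) and the chemokine CXCL14 4.29-fold (3.75 to 4.90). KIT, a receptor tyrosine kinase, was 2.37-fold higher (2.19 to 2.56) and SV2C, a synaptic vesicle protein, 2.21-fold (2.03 to 2.41). EYA4, a transcriptional cofactor, was not called, at 139 against 118 CPM. IL1RAPL2, a synaptic adhesion protein, reached 937 against 224 CPM (4.18-fold, 4.03 to 4.33), and HS3ST5, a heparan sulfate sulfotransferase, 793 against 169 CPM (4.68-fold, 4.49 to 4.87).

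Of 37 interneuron transcription factors measured, 30 were not called, 4 were called higher (NR2F2, BCL11B, NFIX, TOX3) and 3 lower (SOX6, SATB1, BCL11A), beside 1.2% and 2.29% of all genes. The list median was 0.17. NR2F2, a caudal-eminence factor, was 2.69-fold higher (2.41 to 3.00). The rule bears on this call too, since members had to hold ADARB2 and lack LHX6, so it is given as a description. Against ADARB2 nuclei without RELN, described below, NR2F2 was not called. SOX6 and SATB1, medial-eminence factors, stood at 69.5 against 382 CPM and 48.7 against 241 CPM. With putative doublets removed, the log2 ratio of SOX6 moved from -2.46 to -3.10. NXPH1, a neurexin ligand of the same lineage list, was lower than in other GABAergic nuclei but far from absent, at 936 against 2106 CPM. PROX1, also linked to the caudal eminence, was not called, at 71.8 against 56.1 CPM. Of 9 neuropeptide and granin genes measured, TAC1, CRHBP, NPY and SST were called lower, CXCL14 higher and 4 were not called. The lower ones are also given as a description, since members had to lack LHX6. In 194 SST interneurons, a class that needed LHX6, the thinned shares were 19.6% for TAC1 and 17.0% for NPY. In members they were 0.886% and 1.01%. TAC1 was at 3.70 against 41.4 CPM and CRHBP at 4.28 against 47.5 CPM; thinned to 2000 UMIs, CRHBP moved from a log2 ratio of -3.47 to -2.75, and NPY, at -2.51, stood at -1.71 and was no longer called.

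In reelin's own pathway, of 15 genes measured, DAB1 was called higher, LRP8 lower and 13 not called, where 3.49% of all genes were called in either direction. The list median was -0.08. DAB1 was at 1386 against 687 CPM, a log2 ratio of 1.01 that was 1.00 without library 4 and 0.99 without library 6, thinned to 2000 UMIs also 0.99, and then not called. DAB1 was even over libraries (1282 to 1454 CPM in members, 615 to 816 in other GABAergic nuclei), and the ranges did not overlap. LRP8 was at 68.3 against 152 CPM, 2.22-fold lower (1.99 to 2.48), with every library of members below every library of the other class. VLDLR was at 18.5 against 18.0 CPM, a ratio of 1.03 (0.818 to 1.28).

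Calls in genes of inhibitory transmission were few, as over all genes, of which 3.49% were called. None of 10 genes for GABA synthesis, transport and chloride was called, and of 12 GABA-A receptor subunits only GABRG1 was (2.02-fold, 1.83 to 2.23); thinned to 2000 UMIs its log2 ratio was 0.82 and it was not called. GABA-A receptors are among the targets of volatile anaesthetics. GABRD, the delta subunit of extrasynaptic receptors, was at 47.9 against 43.0 CPM. Among ion channels, KCNQ5, which carries the M current, was 2.22-fold higher (2.17 to 2.26) and KCNN2, a calcium-activated potassium channel, 2.26-fold (2.15 to 2.39). The kainate receptor subunit GRIK3 was the only one of 17 ionotropic glutamate receptor subunits called, at 30.4 against 272 CPM. The rule bears on this call, since members had to lack LHX6. The thinned share of GRIK3 was 58.2% in SST interneurons, a class that needed LHX6, and 3.42% in members.

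**Figure D3:**
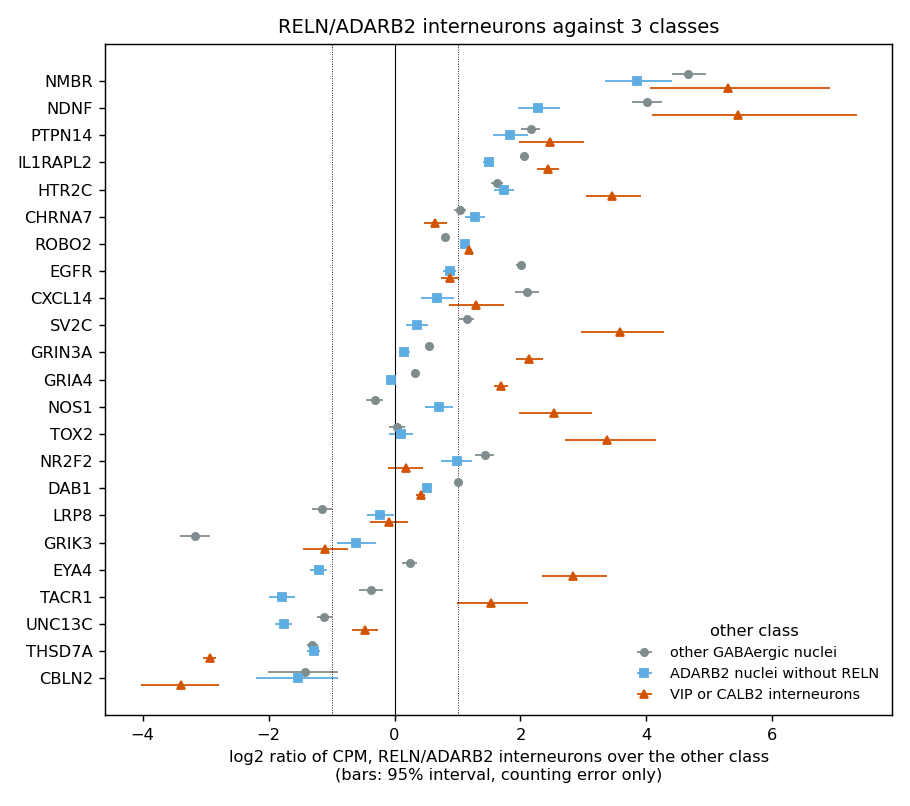
log2 ratio of CPM in members over 3 other classes (horizontal axis) for 23 genes (vertical axis); bars are 95% intervals and dotted lines mark 2-fold. NMBR and NDNF are past 2-fold against all 3 classes, while SV2C, GRIN3A, TOX2 and NOS1 are past it to the right only against VIP or CALB2 interneurons or, for SV2C, also against all other GABAergic nuclei.

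The closest comparison changes the rule for RELN alone. It set the members against 675 nuclei that met the same rule except that RELN was at 0 UMIs, with a median depth of 5465 UMIs. The classes also differed in other levels. ADARB2 ran from 9148 to 10631 CPM over libraries of members and from 6579 to 9184 CPM without RELN. The oligodendrocyte list summed to 230 CPM in members and 432 CPM without RELN. This comparison was added after the data had been seen. Of 9362 genes measured, 22 were called higher in members (0.235%) and 70 lower (0.748%), 0.983% in either direction, with a median log2 ratio of -0.02.

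NMBR again had the largest ratio of the genes named, at 112 against 7.74 CPM, 14.4-fold (10.2 to 21.2). NDNF was 4.87-fold higher (3.88 to 6.17), with library values of 65.0 to 145 CPM in members and 6.86 to 35.7 CPM without RELN. The summed levels of both genes were thus higher with RELN than without it in every library. They do not separate single nuclei: the thinned share of NDNF was 17.3% in members and 4.06% without RELN. LAMP5 differed far less, at 89.9 against 72.3 CPM (1.24-fold, 1.08 to 1.44, higher in 7 of 8 libraries). CNR1, at 814 against 589 CPM, was higher in only 5 of 8 libraries. Neither was called, and for both the library ranges overlapped.

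Single receptors, guidance genes and enzymes were among the others. Of 18 neuromodulator and peptide receptors measured, HTR2C was called higher and TACR1 lower, and of 36 semaphorin, ephrin, slit and netrin genes, ROBO2 higher and SLIT2 lower. Over all genes, 0.235% were called higher and 0.748% lower. HTR2C was 3.34-fold higher than in ADARB2 nuclei without RELN (2.98 to 3.74), though under the stricter thresholds, with a log2 ratio of 1.75, not every library kept the direction. CHRNA7 was 2.43-fold higher (2.18 to 2.71), with all member libraries (176 to 332 CPM) above all libraries of the other class (70.9 to 121 CPM). IL1RAPL2 was 2.83-fold higher (2.66 to 3.00), the slit receptor gene ROBO2 2.16-fold (2.12 to 2.20) and the cadherin gene FAT1 2.59-fold (2.24 to 3.00). PTPN14, a tyrosine phosphatase, was 3.57-fold higher (2.95 to 4.35), INPP4B, a lipid phosphatase, 3.40-fold (3.12 to 3.72), and the transcription factor TOX3 2.26-fold (2.07 to 2.47).

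Lower in members than in ADARB2 nuclei without RELN were TACR1, the substance P receptor (51.4 against 177 CPM), and PBX3, a homeobox factor (75.3 against 270.5 CPM). UNC13C, a vesicle priming protein, stood at 121 against 411 CPM, EYA4 at 139 against 319.5 CPM and THSD7A at 209 against 509 CPM. For TACR1, PBX3 and THSD7A every library of members lay below every library of the other class. SLIT2, a ligand of ROBO2, was at 114 against 260 CPM. No reelin pathway gene of 14 measured was called, nor any of 12 GABA-A subunits, where 0.983% of all genes were, so these counts are near the background.

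Against 267 VIP or CALB2 interneurons, which share ADARB2 and lack LHX6, called genes included glutamate receptor subunits and transcription factors. That class was defined by at least 3 UMIs of VIP and CALB2 together and had a median of 5913 UMIs. The rule bears on this comparison, since members had to lack both genes, so genes called lower in members are given as a description. Of 9453 genes measured, 196 were called higher in members (2.07%) and 181 lower (1.91%), with a median log2 ratio of 0.00. LAMP5 was 19.7-fold higher (9.90 to 45.9), its log2 ratio of 4.30 being 5.31 with doublets removed, and SV2C had a log2 ratio of 3.58. NDNF, at 4 UMIs in the whole VIP or CALB2 class, gave a ratio of 44.0 (17.1 to 162), a log2 ratio of 5.46 that became 6.11 without library 2. NMBR had a log2 ratio of 5.29, 7.28 without library 2. CNR1 did not differ in a steady direction, at 814 against 734 CPM, higher in 4 of 8 libraries.

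Of 17 ionotropic glutamate receptor subunits, 6 were called higher and 1 (GRIK3) lower, beside 2.07% and 1.91% of all genes. The list median was 0.47 against 0.00 over all genes. None of 17 measured subunits was called higher against other GABAergic nuclei or against ADARB2 nuclei without RELN. GRIN3A, an NMDA receptor subunit, was 4.41-fold higher (3.82 to 5.12), GRIA4, an AMPA receptor subunit, 3.24-fold (3.00 to 3.49) and GRIN2A 2.64-fold (2.49 to 2.80). GRIK3, at 30.4 against 65.1 CPM, fell to a log2 ratio of -0.93 without library 6 and was then not called. GABRD was the 1 GABA-A subunit of 12 called, 3.99-fold higher (2.55 to 6.56), a log2 ratio of 2.00 that became 3.17 when thinned. HTR2C stood at 296 against 26.9 CPM, a log2 ratio of 3.46, 4.05 without library 3, and HRH1, the histamine H1 receptor, was 6.80-fold higher (4.97 to 9.55), its log2 ratio moving from 2.77 to 3.89 when thinned.

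Of 38 transcription factors measured, 8 were called higher than in VIP or CALB2 interneurons and 1, PROX1, lower, beside 2.07% and 1.91% of all genes. PROX1 was at 71.8 against 186 CPM (2.58-fold lower, 2.22 to 3.01). TOX2 was 10.4-fold higher (6.53 to 17.7) and TOX3 6.48-fold (5.29 to 8.02). NXPH1 stood at 936 against 54.3 CPM, 17.2-fold higher (14.1 to 21.4), a log2 ratio of 4.11 that was 4.72 after 5% of each library's summed profile had been taken off. Its library values in members, 1300, 1526, 1315, 901, 742, 704, 904 and 687 CPM, were all above the 19.4 to 152 CPM of VIP or CALB2 interneurons and all below the 1790 to 2270 CPM of other GABAergic nuclei. The neuronal nitric oxide synthase NOS1 was 5.79-fold higher (3.96 to 8.81), and FGF13, a sodium channel modulator, 6.19-fold (5.43 to 7.09). On the other side, SCGN, a calcium sensor, was at 1.75 against 68.6 CPM, the adhesion partner CBLN2 at 5.84 against 61.1 CPM and CHRNA2 at 3.89 against 56.6 CPM. Thinned, CHRNA2 was no longer called, at a log2 ratio of -6.09, and SCGN moved from -5.29 to -5.96. THSD7A stood at 209 against 1602 CPM and ZNF804A at 298 against 1924 CPM.

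Only 44 nuclei had both LAMP5 and LHX6 (at least 2 UMIs each, none of VIP or SLC17A7), and no library held 10 of them, so the direction could not be checked by library. By fold and CPM alone, 915 of 9644 genes were higher in members (9.49%) and 650 lower (6.74%), with a median log2 ratio of 0.02. CNR1 stood at 814 against 48.9 CPM and IL1RAPL2 at 937 against 46.0 CPM. NR2F2 had no UMI in the 44 nuclei, so it was at least 10.6-fold higher in members when the class is set at 3 UMIs. Its log2 ratio moved from 3.40 to 1.49 when nuclei were thinned to 2000 UMIs. On the other side were SV2C at 144 against 342 CPM, NOS1 at 92.7 against 451 and NXPH1 at 936 against 2987.

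**Figure D4:**
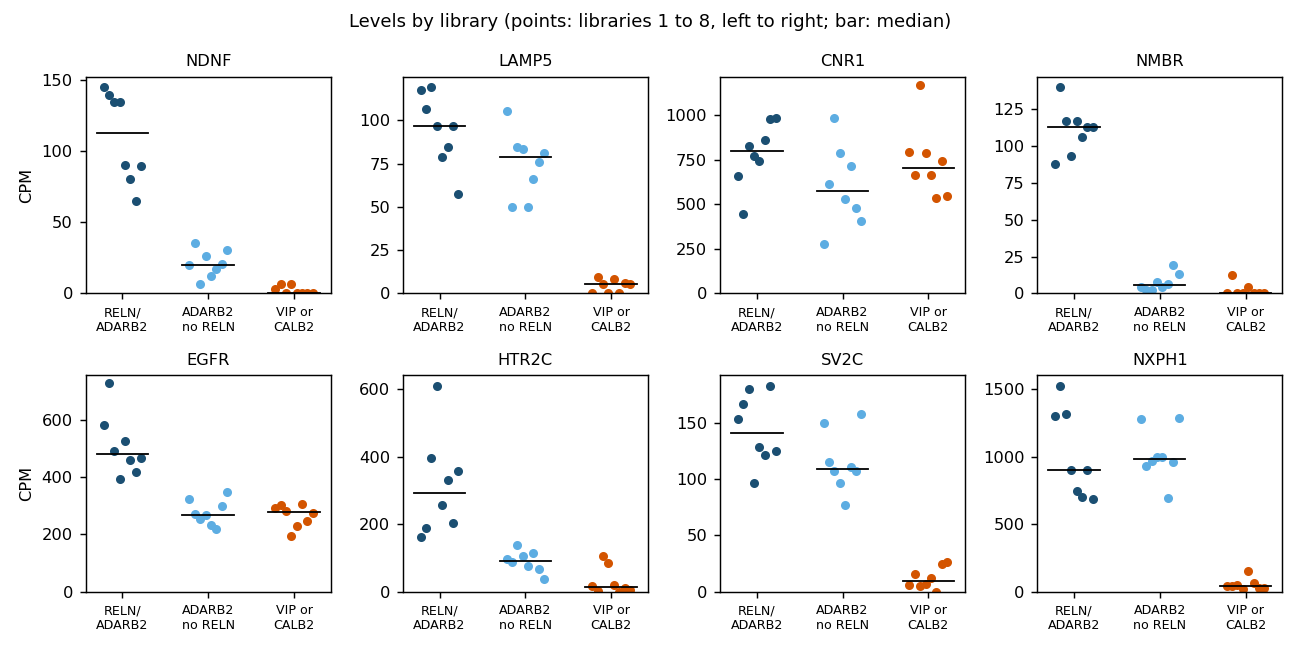
CPM (vertical axis) of 8 genes in each of the 8 libraries (points, libraries 1 to 8 from left to right; bar, median) for members, ADARB2 nuclei without RELN and VIP or CALB2 interneurons. NDNF, NMBR, EGFR and HTR2C are higher in every member library than in any library of the other 2 classes, while LAMP5, CNR1, SV2C and NXPH1 overlap with nuclei without RELN.

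Some genes varied between libraries within the members. HS3ST5 stood at 1102, 1326, 1244, 1118, 716, 515, 561 and 572 CPM, a wider spread than the 151 to 211 CPM over libraries in other GABAergic nuclei. PTPN14 ran the other way, at 49.0, 94.5, 40.4, 48.3, 155, 132, 133 and 122 CPM, as did PBX3, at 34.1, 28.7, 26.9, 44.9, 97.4, 93.2, 98.2 and 97.1 CPM. Libraries 1 to 4 were thus higher for HS3ST5 and lower for PTPN14 and PBX3 than libraries 5 to 8, with no overlap. These 3 genes were picked out for this after their values were seen. The share of all genes that part these libraries in the same way was not counted. Whether PTPN14 and PBX3 part them in other classes too was not tested. Whether the spread belongs to pool, animal, depth or tissue piece cannot be told apart here.

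The members were not uniform. LAMP5 had 2 or more UMIs in 118 members, 1 in 152 and none in 527, and CNR1 2 or more in 372, 1 in 132 and none in 293. By library, 22.6%, 16.4%, 29.3%, 14.6%, 12.1%, 10.8%, 18.8% and 7.69% of members had 2 or more UMIs of LAMP5, library 3 being the highest and library 8 the lowest. The 2 genes tended to occupy different nuclei: with nuclei thinned to 2000 UMIs, CNR1 had a UMI in 28.2% of members with LAMP5 and 49.8% of members without it (53.0% and 68.5% from all UMIs). SV2C did the opposite, in 35.9% of members with LAMP5 and 17.6% without.

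Other genes followed this division. Between the 118 members with 2 or more UMIs of LAMP5 and the 527 with none, a gene was called at 2-fold, 20 CPM and the same direction in all 8 libraries, each with at least 5 nuclei on both sides. The genes named for these splits were picked after their values were seen. Of 7244 genes, 57 were higher with LAMP5 (0.787%) and 99 lower (1.37%), at median depths of 6080.5 and 5673 UMIs. SV2C was at 308 against 80.7 CPM (3.82-fold, 3.20 to 4.54), NMBR at 194 against 72.7 (2.67-fold, 2.17 to 3.27) and TACR1 at 95.3 against 34.4 (2.77-fold, 2.05 to 3.72). The glutamate receptor subunits GRIN2A (3309 against 1259 CPM), GRIN3A (849 against 365) and GRIA4 (2387 against 979) were on the same side, as were NOS1, NXPH1, TOX2, TOX3 and KIT.

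On the side without LAMP5 were CNR1 (164 against 1098 CPM), the proteoglycan gene GPC5 (184 against 1110), the adhesion gene CLMP (24.4 against 305) and LYPD6, a modulator of nicotinic receptors (7.33 against 102). NRXN3, a presynaptic adhesion protein, was at 1488 against 7300 CPM. NDNF did not divide the same way, at 129 CPM with LAMP5 and 89.8 without, higher in 6 of 8 libraries and not called. FREM1 was level, at 312 against 324 CPM.

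The split by CNR1 gave the mirror image for most of these genes. The 2 splits use the same nuclei and are not independent, and the 372 members with 2 or more UMIs of CNR1 were deeper (median 6752.5 UMIs) than the 293 with none (4713). Of 7207 genes, 125 were higher with CNR1 (1.73%) and 81 lower (1.12%). GPC5 was at 1310 against 126 CPM, CLMP 9.24-fold higher (7.19 to 12.1) and LYPD6 8.80-fold (5.72 to 14.2). FREM2, an extracellular matrix protein, was at 232 against 23.1 CPM and SCN9A, a sodium channel gene, at 161 against 31.2. On the side without CNR1 were SV2C (60.3 against 245 CPM), KIT (78.4 against 302), EYA4 (60.6 against 264) and GABRD (18.2 against 80.5).

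Both genes were also crossed, with SV2C and NDNF as the genes read out. The 291 members with 2 or more UMIs of CNR1 and none of LAMP5 had an SV2C level of 18.0 CPM, whereas the 166 members with neither gene had 207 CPM and the 58 with LAMP5 and no CNR1 had 318 CPM. NDNF differed less over the same groups, at 83.4, 111 and 141 CPM. Another 33 members had 2 or more UMIs of both genes. Simulated doublets were called in 3 of those 33 and in 21 of the 291, against 52 of all 797 members (6.52%) and 6.14% of all nuclei past the filter.

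Splitting by NDNF gave the fewest calls of the 3 splits. The 130 members with 2 or more UMIs and the 506 with none differed in 8 genes higher (0.111%) and 44 lower (0.608%) of 7233, and the median depths were 6974.5 and 5460 UMIs. CNR1 had a thinned share of 34.3% in members with NDNF and 48.7% in members without.

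**Figure D5:**
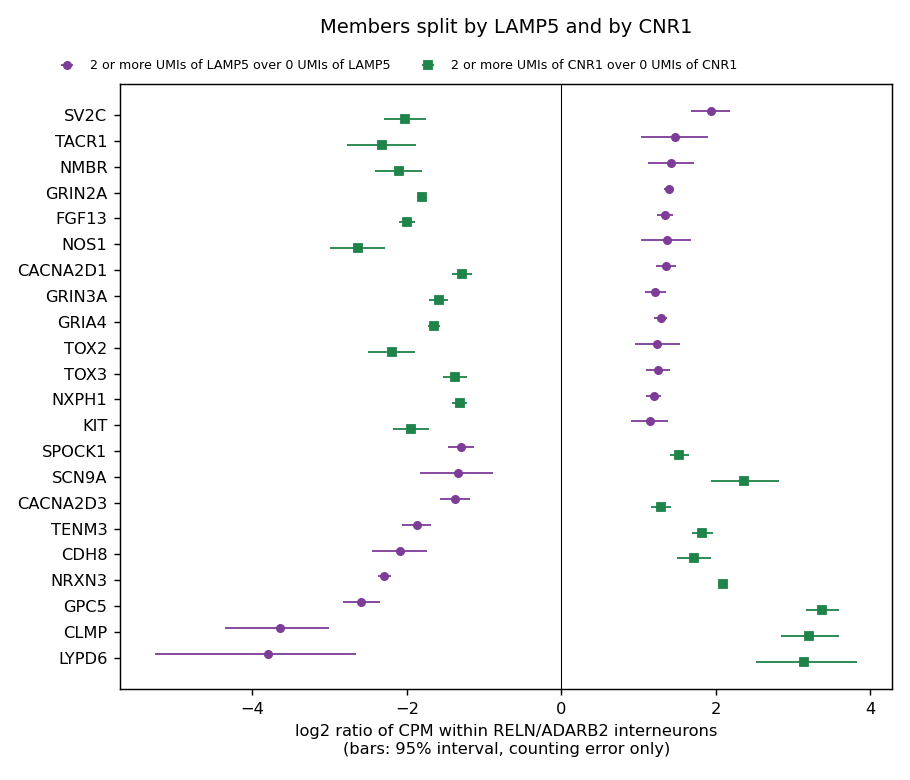
log2 ratio of CPM (horizontal axis) for 22 genes (vertical axis) between members with 2 or more UMIs and members with 0 UMIs of LAMP5 (circles) or of CNR1 (squares); bars are 95% intervals. The upper 13 genes, from SV2C to KIT, are higher with LAMP5 and lower with CNR1, and the lower 9, from SPOCK1 to LYPD6, are the reverse.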

How the data were processed

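The authors deposited raw UMI counts of all 8 libraries in 1 matrix, without normalisation. Per the file headers the software version is 3.1.0, and CASAVA 1.8, Cell Ranger and Seurat appear in the submitters' processing notes with no role or order. The build, the annotation, the use of strand and the handling of intronic reads were each not given in the sources used here. Overlapping genes therefore cannot be told apart. No column of per-sample values was left unused (0). Mitochondrial genes were not analysed, and some genes of these lists are not reported here.

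UMIs were summed per class and scaled to CPM. Intervals at 95% are exact: Clopper-Pearson for shares, Poisson for CPM, and binomial given the summed count for ratios; where a class had no UMI, 3 counts over the class gave a bound. Nuclei flagged as doublets, by similarity to simulated pairs among 50 neighbours and at 0.8% per 1000 nuclei, were kept in the main results and removed in an alternative. Oligodendrocytes for background shares had at least 2 UMIs of MOG and none of GAD1, GAD2 or SLC17A7.

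The members and the 23 lists of 579 genes (565 in the matrix) were chosen with earlier results of these data known. Named genes are, in each comparison, the called genes of largest fold (at most 2 in each list and direction), the 8 of largest fold and 4 of highest CPM per direction, all markers, GABA-A subunits and reelin pathway genes. Other genes with values, and a named gene followed into another comparison, were chosen after their values were seen. The calling code was tested on simulated data.

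Alternatives were TMM (edgeR 4.0.16) and DESeq2 1.42.0 size factors, equal library weights, other CPM minimums, at least 1000 genes per nucleus, doublet removal, thinning to 2000 UMIs, subtraction of 5% of each library's profile, looser and stricter rules and leaving out each library. Python 3.11.15, numpy 2.4.6, scipy 1.17.1, pandas 2.3.3, scikit-learn 1.9.0 and R 4.3.3 were used.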

Additional observations from a re-analysis of the deposited data

How the results depend on the processing

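Members were 14.2% of GABAergic nuclei, 15.2% under a looser rule (ADARB2 of at least 3, RELN of at least 2 UMIs) and 12.9% under a stricter one (10 and 5), and 13.7% to 14.6% with each library left out. Genes lower than in other GABAergic nuclei numbered 215, and 348 with no minimum CPM. In the comparison with 44 nuclei with LAMP5 and LHX6 the count of lower genes was 650, and 1065 with a minimum of 5 CPM, 1559 with no minimum and 1868 when thinned to 2000 UMIs, where genes higher in members made up 33.2% of calls (58.5% as reported; 43.6% with no minimum). There, thinning turned NECAB2 to a log2 ratio of -0.12 and VCAN to -0.24, and CALB1 ranged from -1.98 without library 1 to 0.19 without library 3; the causes were not tested. All other counts stayed within 1.5 times, and no other gene named by the rule changed direction, under the alternatives run. Of the 327 calls against other GABAergic nuclei, 245 held when thinned; of 377 against VIP or CALB2 interneurons, 240; and of 92 against nuclei without RELN, 59. Thinning leaves fewer UMIs per class. Scaling by TMM or DESeq2 size factors shifted the median log2 ratio over all genes by at most 0.04.

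No paired analysis was possible because no file pairs libraries with samples; the planned comparison of sevoflurane with control was not run for the same reason. Equal library weights gave no value for the comparison with LAMP5 and LHX6 nuclei, since no library held 10 of them. Depth limited genes under 10 CPM and the share of nuclei in which a gene was seen.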
